A study of Mus musculus with 32 samples.

Results

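The 9 genes described here were chosen by symbol: H2-K1, H2-D1, H2-Q7, B2m, Tap1, Tap2, Tapbp and Cd74, which serve antigen presentation by the major histocompatibility complex (MHC), and Bst2, an interferon-induced gene. All 9 were present in each of the 3 deposited expression tables, which together listed 24034 genes. The values are FPKM (fragments scaled to transcript length and library depth), here a measure of RNA. In part of the libraries they include ribosomal precursor RNA, as described below.

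MHC class I molecules display peptides from inside the cell to cytotoxic T cells and to receptors of natural killer cells. A class I molecule consists of a heavy chain (H2-K1, H2-D1 and H2-Q7) and the light chain beta-2-microglobulin (B2m). Peptides enter the endoplasmic reticulum through the transporter made of Tap1 and Tap2, and tapasin (Tapbp) holds the empty class I molecule at that transporter while it is loaded. In the mouse, H2-Q7 and its near copies H2-Q6, H2-Q8 and H2-Q9 encode the Qa-2 antigen, which is known from preimplantation embryos for its link to the rate of cleavage. Cd74 is the invariant chain that guides MHC class II molecules, the partners of class I in specialised immune cells. Bst2, or tetherin, is an interferon-induced membrane protein that holds budding viruses at the cell surface.

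RNA of 32 samples was sequenced after a changed form of Smart-seq2, which copies whole transcripts from minute inputs. Knocked-down embryos were 8-cell embryos injected with siRNA against Nr5a2 (4 libraries, 4 controls) and blastocysts injected with siRNA against Gata4 (4 libraries, 3 controls), cultured in CZB medium with glutamine. The labels call the comparison embryos KD controls and do not say what these received. The stage series had 2 samples each of MII oocytes, of zygotes, of embryos at the early 2-cell, 2-cell, 4-cell and 8-cell stages, and of mouse embryonic stem cells (mESC, the R1 line kept in LIF and serum). A further 3 samples were inner cell mass (ICM) freed from blastocysts by immunosurgery. Oocytes came from superovulated C57BL/6N females, and every embryo from a cross of such females to DBA/2N males, so the embryos carry class I alleles of both strains. Reads were aligned to mm9, which is a C57BL/6J sequence, and the effect of the other strain's alleles on these values was not tested. No label ties samples to separate litters or cultures, so p-values reflect only how far these samples spread, and that spread may be technical. In such pooled material fewer cells with a transcript and less of it per cell cannot be told apart.

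Between 7703 and 8370 genes reached 1 FPKM in the 8-cell knockdown libraries, between 7378 and 8945 in the blastocyst libraries and 8388 to 9580 at each stage. The tables hold no read totals, and relative depth was read from the steps of low FPKM values, which gave a 2.92-fold range in the 8-cell libraries. Each targeted gene was lower in its own knockdown. Nr5a2 had 3.76, 4.25, 6.72 and 6.60 FPKM in Nr5a2 knockdown embryos and 23.6, 20.3, 13.1 and 25.2 FPKM in controls. Gata4 had 0, 0.368, 0 and 0 FPKM in Gata4 knockdown blastocysts and 3.18, 0.716 and 5.44 FPKM in controls. The ribosomal precursor Rn45s split the data: 2 knockdown blastocyst libraries and 1 control had it listed at 0, while the other 4 had 37959 to 44718 FPKM. All 8-cell knockdown libraries had it (19702 to 29618 FPKM), whereas in the stage table it was listed at 0 apart from MII oocytes, early 2-cell embryos and mESC.

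The promoter windows of the 3 class I heavy chains and of B2m are shown because these genes had different courses over the stages, as described further on. Each runs from 250 bases before the gene's start to 50 bases after it, 5′ to 3′ on the gene's strand, from RefSeq on build GRCm38.p6 (not the build of the expression values). The table held 7 of the 9 genes. The windows lie at chr17:34000298-34000597 on the minus strand for H2-K1, chr17:35262844-35263143 on the plus strand for H2-D1, chr17:35438905-35439204 on the plus strand for H2-Q7 and chr2:122147437-122147736 on the plus strand for B2m. Capitals mark matches, on either strand, to a kappaB core (GGGNNTTCC), to an interferon regulatory factor core (AANNGAAA) and to the CCAAT box.
H2-K1: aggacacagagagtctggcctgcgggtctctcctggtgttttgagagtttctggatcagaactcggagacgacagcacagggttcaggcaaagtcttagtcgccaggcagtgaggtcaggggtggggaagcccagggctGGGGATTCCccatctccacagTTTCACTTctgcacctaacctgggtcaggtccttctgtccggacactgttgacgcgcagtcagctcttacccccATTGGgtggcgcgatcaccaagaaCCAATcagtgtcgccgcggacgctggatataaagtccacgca
H2-D1: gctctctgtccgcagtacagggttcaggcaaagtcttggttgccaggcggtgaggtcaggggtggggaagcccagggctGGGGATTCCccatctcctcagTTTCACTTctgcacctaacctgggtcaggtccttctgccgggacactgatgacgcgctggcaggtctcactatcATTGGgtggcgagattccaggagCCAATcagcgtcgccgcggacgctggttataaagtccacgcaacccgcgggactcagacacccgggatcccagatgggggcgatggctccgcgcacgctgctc
H2-Q7: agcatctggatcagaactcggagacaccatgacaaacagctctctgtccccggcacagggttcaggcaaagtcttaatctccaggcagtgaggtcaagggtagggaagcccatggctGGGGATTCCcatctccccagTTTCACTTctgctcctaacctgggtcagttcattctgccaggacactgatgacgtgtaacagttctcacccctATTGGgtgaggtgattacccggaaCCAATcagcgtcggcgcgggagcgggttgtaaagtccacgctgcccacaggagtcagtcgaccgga
B2m: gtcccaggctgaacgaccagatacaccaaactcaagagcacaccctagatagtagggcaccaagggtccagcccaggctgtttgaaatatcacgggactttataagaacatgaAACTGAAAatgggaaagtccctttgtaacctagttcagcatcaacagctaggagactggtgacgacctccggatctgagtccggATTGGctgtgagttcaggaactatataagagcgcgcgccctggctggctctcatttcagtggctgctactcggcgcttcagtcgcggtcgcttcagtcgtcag
The kappaB letters were found in the windows of the 3 heavy chains and not in that of B2m, and in 1912 of 32851 promoter windows of the same length (5.82%). The 3 heavy-chain windows read alike around this match, so they are not independent counts. Among windows not shown, Bst2 had 1 kappaB match, while Tapbp, Tap1 and the heavy chain H2-Q10 had 0. No marked match overlapped another. The interferon regulatory factor core was in all 4 windows and in 23.9% of all promoters, and CCAAT was in all 4 and in 37.4% of all. A motif of the receptor that Nr5a2 encodes (CAAGGNCA, in 6.71% of promoters) and one of the GATA factors (AGATAA, in 11.2%) had no match in these windows. A match describes letters in a window and says nothing of binding.

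Over the stages, the heavy chain H2-Q7 and the light chain B2m were highest in 2-cell and 4-cell embryos, whereas H2-K1 and H2-D1 stayed below 10 FPKM throughout and the transporter genes were near 0. Each stage has 1 deposited value, so these are levels with no spread and no test. MII oocyte, early 2-cell and mESC values carry Rn45s and the others do not. Steps into or out of those stages cross that difference, and its part in them was not tested. A step between neighbouring stages was counted where log2(FPKM + 1) differed by at least 1 and the higher stage had at least 5 FPKM. By that rule 12 steps of the 9 genes were counted, 5 upward and 7 downward. Shares of all genes are taken over every gene listed, including those too low to pass. Of 24013 genes in the stage table, 9573 reached 5 FPKM at some stage. Among the 9 genes, Tapbp, Cd74, Tap1 and Tap2 stayed below 5 FPKM at every stage. Later shares by this rule are taken in the same way.

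H2-Q7 was listed at 0 in MII oocytes, with 0.0561 FPKM in zygotes, 0.149 in early 2-cell, 18.7 in 2-cell, 14.5 in 4-cell and 5.89 in 8-cell embryos, 1.40 in ICM and 0.0208 in mESC. Its level thus lay almost wholly in the 3 cleavage stages from 2-cell to 8-cell. The step from early 2-cell to 2-cell was 4.10 on the log2(FPKM + 1) scale, with later falls of 1.17 from 4-cell to 8-cell and 1.52 from 8-cell to ICM. At the 2-cell step 3 of the 9 genes were higher and 1 was lower by the rule, against 10.5% higher and 10.4% lower among all genes in the table. The genes whose stage profile was most like that of H2-Q7, by Pearson correlation of log2(FPKM + 1) over 8 stages among 9573 genes, were Gm14851 (0.997), Zfp775 (0.996) and Sesn2 (0.995).

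The value of H2-Q7 can depend on how reads were divided among its copies. In the GENCODE M21 coding sequences H2-Q7 was 96.4% identical to H2-Q5 over its whole length, and H2-Q6 was 96.1% identical to H2-Q7 over 90.6% of its own, so its level is uncertain. H2-Q9, the Qa-2 gene with the highest value, had 29.2 FPKM in 2-cell, 67.2 in 4-cell and 34.6 in 8-cell embryos. The sum of H2-Q6, H2-Q7, H2-Q8 and H2-Q9 was at or below 0.264 FPKM up to the early 2-cell stage. It then reached 76.7 in 2-cell, 118 in 4-cell and 52.2 in 8-cell embryos, with 1.72 in ICM and 0.0534 in mESC. The sum therefore peaked in 4-cell embryos, where H2-Q7 on its own peaked in 2-cell embryos. H2-Q7 took 24.3% of the sum in 2-cell, 12.3% in 4-cell and 11.3% in 8-cell embryos, and 80.9% in ICM. H2-Q10, a related heavy chain that lies beside this cluster, had 14.7 FPKM in 2-cell, 15.7 in 4-cell and 5.69 in 8-cell embryos.

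**Figure D1:**
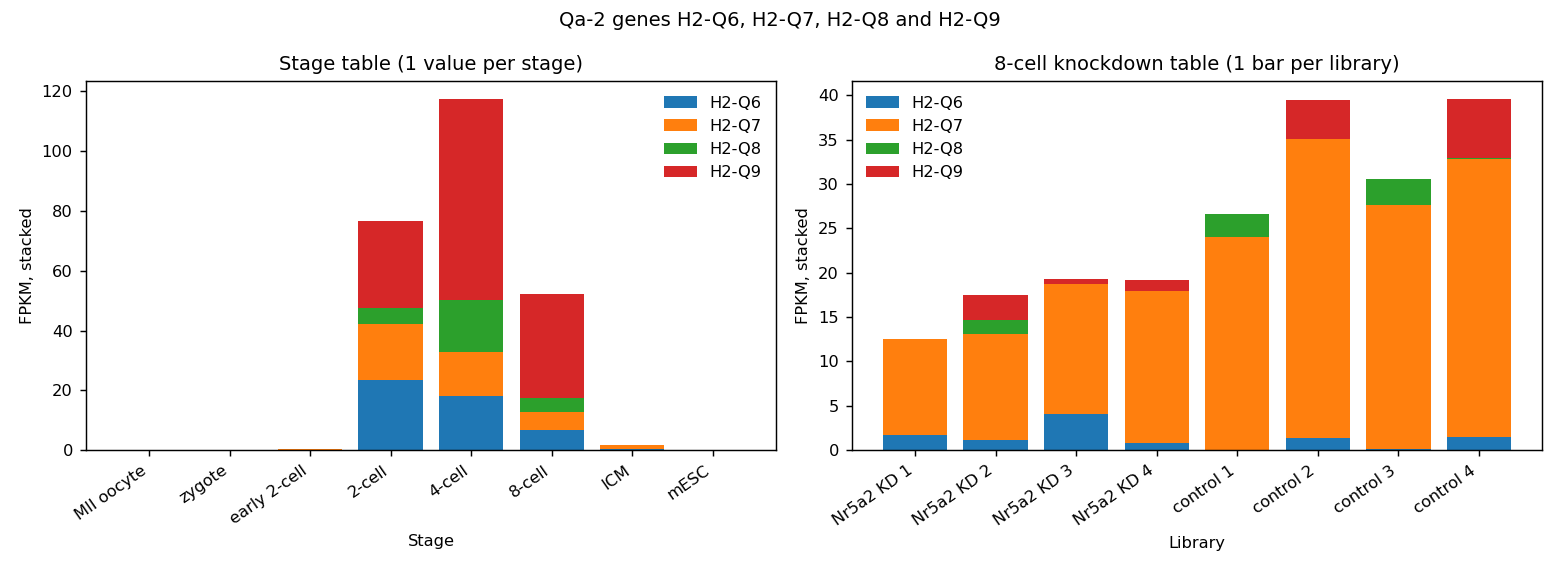
Stacked FPKM of H2-Q6, H2-Q7, H2-Q8 and H2-Q9 in the stage table (left, 1 bar per stage) and in each 8-cell knockdown library (right, Nr5a2 knockdown left of control). The stacked bar is tallest in 4-cell embryos (118 FPKM), and the 4 Nr5a2 knockdown bars (12.5 to 19.3 FPKM) are shorter than the 4 control bars (26.6 to 39.6 FPKM).

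B2m, the light chain of every class I molecule, had 7.42 FPKM in MII oocytes, 7.08 in zygotes, 18.7 in early 2-cell, 75.1 in 2-cell, 53.1 in 4-cell and 27.8 in 8-cell embryos, 6.72 in ICM and 14.3 in mESC. It had the highest level of the 9 genes at every stage but 2. The exceptions were MII oocytes, where Bst2 was higher, and ICM, where H2-D1 was higher. B2m was the only one of the 9 past the rule at the early 2-cell step (1.29, with 1.31% of all genes higher and 2.1% lower). It was higher again in 2-cell embryos (1.95) and lower in ICM than in 8-cell embryos (-1.90). At the ICM step 2 of the 9 genes, H2-Q7 and B2m, were lower and 0 higher, against 6.03% of all genes lower and 7.65% higher. The correlation between B2m and H2-Q7 over the 8 stages was 0.873, the highest among pairs of the members compared. The profiles most like that of B2m belonged to Zfp647 (0.990), Zbtb5 (0.971) and B020004C17Rik (0.962). Early 2-cell libraries carry Rn45s while zygote and 2-cell values do not, and the part of that difference in these steps was not tested.

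The classical heavy chains had flatter courses. H2-K1 had 4.23 FPKM in MII oocytes, 1.88 in zygotes, 2.79 in early 2-cell, 8.04 in 2-cell, 2.86 in 4-cell and 3.26 in 8-cell embryos, 5.92 in ICM and 4.23 in mESC. Its 2-cell value stood above both neighbours, by 1.25 over early 2-cell embryos and with a difference of -1.23 for 4-cell against 2-cell embryos. That fall was the only one among the 9 genes at the 4-cell step, where 4.73% of all genes were lower and 6.58% higher. H2-D1 was listed at 0 in MII oocytes and close to 0 in zygotes, and had 1.60 FPKM in early 2-cell, 3.73 in 2-cell, 2.77 in 4-cell and 7.86 in 8-cell embryos, 6.89 in ICM and 2.47 in mESC. It was the only gene of the 9 that was higher at the 8-cell step (1.23, with 1.72% of all genes higher and 2.43% lower), and the only one past the rule between mESC and ICM (-1.19, with 10.5% of all genes lower and 3.02% higher). The profiles most like H2-K1 were those of Rsbn1l (0.867), Fam178b (0.863) and Cyhr1 (0.842), and for H2-D1 those of Churc1 (0.960), Ubl4 (0.958) and Xpnpep1 (0.952). H2-L, which is read beside H2-D1, stayed at or below 0.422 FPKM at every stage.

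The loading genes were low throughout the stage series. Tap1, a subunit of the peptide transporter, reached 0.641 FPKM in ICM, and Tap2, its partner subunit, stayed at or below 0.155 FPKM. Tapbp ranged between 0.404 FPKM in zygotes and 1.83 in ICM. The general chaperones of the same loading complex were far higher: calreticulin (Calr) had 252 FPKM in ICM, and the disulfide isomerase Pdia3 had 178 in 4-cell embryos. Cd74 stayed at or below 1.38 FPKM, its 4-cell value. Bst2 had 25.5 FPKM in MII oocytes and 2.94 in zygotes, a difference of -2.75 and the only one past the rule among the 9 genes at that step, where 5.64% of all genes were lower and 3.27% higher. It had 6.25 FPKM in early 2-cell, 2.50 in 2-cell, 4.42 in 4-cell and 2.78 in 8-cell embryos and 1.89 in ICM, and was listed at 0 in mESC. Rn45s was present in the MII oocyte and early 2-cell values and listed at 0 in zygotes and 2-cell embryos. The part of that difference in the Bst2 steps was not tested. Creld2 (0.965) and Pkmyt1 (0.962) were among the 3 genes with profiles most similar to that of Bst2.

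**Figure D2:**
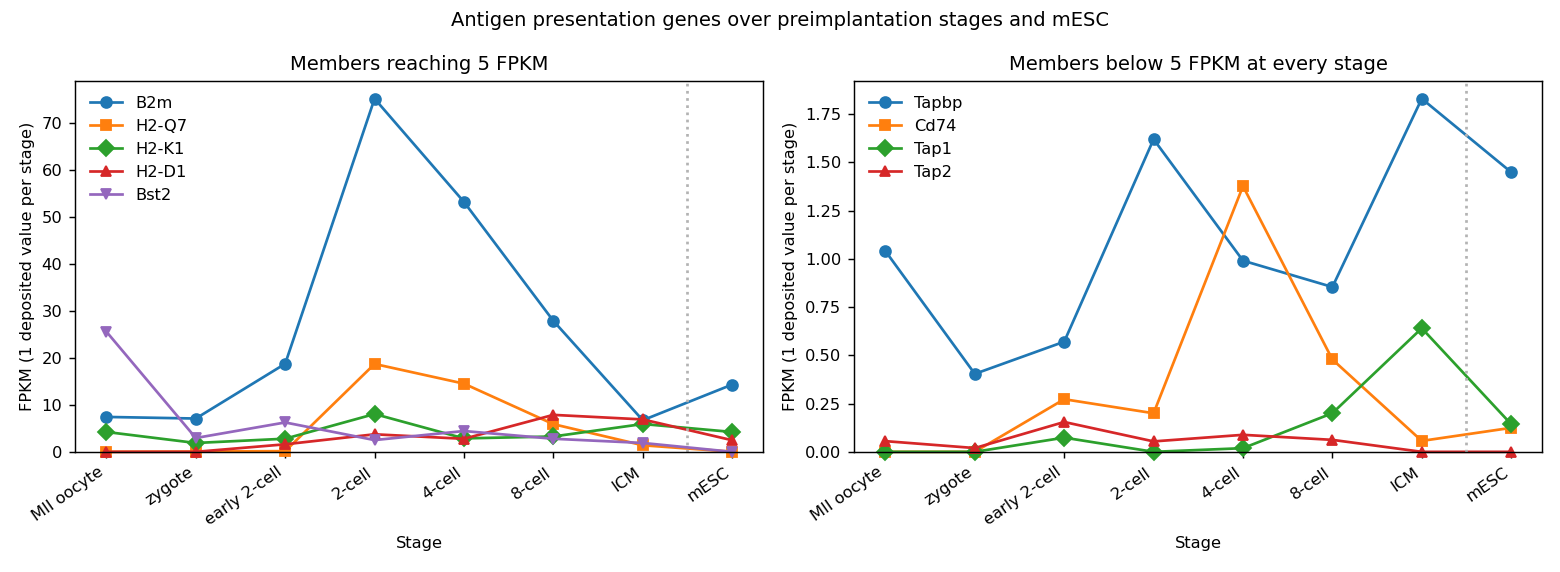
FPKM of the 9 genes at each stage (1 deposited value per stage, no error), with the genes that reach 5 FPKM on the left and the others on the right; the dotted line parts mESC from the embryo stages. B2m (75.1 FPKM) and H2-Q7 (18.7 FPKM) are highest in 2-cell embryos, and the right panel stays at or below 1.83 FPKM.

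The wider pathway was read in the same way. Of 27 listed class I heavy chains, 6 were higher in 2-cell than in early 2-cell embryos (H2-K1, H2-Q6, H2-Q7, H2-Q8, H2-Q9 and H2-Q10) and 2 were lower, against 10.5% higher and 10.4% lower among all genes. H2-Q6 to H2-Q9 are the near copies whose reads may have been divided among them, so they are not independent counts. The lower pair were Cd1d1, which presents lipids, and H2-T10, a nonclassical heavy chain, which had 15.3 FPKM in early 2-cell and 2.04 in 2-cell embryos. Of 6 genes of the immunoproteasome and its activator, Psmb10 (6.01 FPKM) and Psme1 (8.93 FPKM) were higher in 2-cell embryos. Psmb9, an interferon-inducible catalytic subunit, was low until it had 8.10 FPKM in ICM, and Psmb8 stayed at or below 0.0779 FPKM. Nlrc5, the transactivator of class I genes, stayed at or below 0.0756 FPKM. Of the interferon-induced transmembrane genes, Ifitm1 and Ifitm3 were higher in mESC than in ICM: Ifitm1 had 413 FPKM in mESC and 9.81 in ICM, and Ifitm3 had 162 FPKM in mESC and 50.3 in ICM.

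Knockdown of Nr5a2, an orphan nuclear receptor of the early embryo, was followed by lower H2-Q7 in 8-cell embryos, the only change among the 9 genes that passed the test. H2-Q7 had 10.7, 11.9, 14.7 and 17.1 FPKM in Nr5a2 knockdown embryos and 23.98, 33.7, 27.5 and 31.3 FPKM in controls. Every knockdown library lay below every control library, which held for 3.45% of all genes tested, while 0 of the 9 genes lay wholly above the controls, against 8.38%. The means were 13.6 ± 2.86 FPKM after knockdown and 29.1 ± 4.28 FPKM in controls (SD, n = 4 each). The log2 fold change of FPKM + 1 was -1.05 (SE 0.21, limma adjusted p = 0.0347). This call was made in 9 of 17 other settings, with adjusted p between 0.0189 and 0.0951 over all of them. Both counts include the sum of copies given below, which is not H2-Q7 alone. Among the 8 fits that left out 1 library, the call was made in 2 (adjusted p = 0.0371 without Nr5a2 knockdown library 3 and 0.0424 without library 4). Leaving out any of the other 6 libraries ended it (adjusted p between 0.0626 and 0.0951), while the fold change stayed between -1.16 and -0.95. Adding up H2-Q6 to H2-Q9, a sum chosen after the values were seen, gave 12.5, 17.5, 19.3 and 19.2 FPKM after knockdown and 26.6, 39.4, 30.6 and 39.6 FPKM in controls. That sum fell by 0.95 on the log2 scale (adjusted p = 0.0461). H2-Q7 took 68.0% to 89.0% of it in knockdown and 79.0% to 90.2% in control libraries. H2-Q10 had 2.41, 0.901, 4.49 and 3.93 FPKM after knockdown and 4.81, 7.81, 3.82 and 7.78 FPKM in controls (log2 fold change -0.91, SE 0.36, adjusted p = 0.185).

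Of the 8 genes that passed the filter of 1 FPKM in at least 4 libraries, 1 was lower and 0 were higher by limma. Among all 8170 genes tested 128 (1.57%) were higher and 57 (0.698%) lower. At an unadjusted p under 0.05 stood 2 of the 8, H2-Q7 and Cd74, and 1683 of all genes tested. The same split with library medians set equal was 67 higher and 81 lower, and with quantile normalization 68 and 71. The median log2 fold change of all genes was 0.12 as deposited and -0.01 after median scaling. Relative to that median H2-Q7 differed by -1.17. The median fold change of the 8 genes was 0.30 and 7 of them were above 0, against 4943 of all 8170 genes. Tap2 did not pass the filter.

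Some markers of embryonic lineages differed in the same libraries. Tdgf1, a co-receptor of Nodal and a marker of epiblast and stem cells, had 0.161, 1.24, 5.53 and 1.701 FPKM in Nr5a2 knockdown embryos and 50.5, 49.5, 39.97 and 93.9 FPKM in controls (log2 fold change -4.44, SE 0.46, limma adjusted p = 0.00182). It was the only one called of 7 tested among 10 listed markers of epiblast and stem cells. Their summed level overlapped between the groups, at 60.7 to 228 FPKM after knockdown and 191 to 376 FPKM in controls. Gata3, a transcription factor of the trophectoderm, had 13.2, 11.03, 4.87 and 7.05 FPKM after knockdown and 0.182, 3.36, 2.51 and 2.42 FPKM in controls (log2 fold change 1.76, adjusted p = 0.0557). Its groups did not overlap, as held in that direction for 8.38% of all genes tested, and it did not pass. The summed level of 10 trophectoderm markers overlapped, at 144 to 199 FPKM after knockdown and 152 to 236 FPKM in controls. Of 5 trophectoderm markers tested 0 were called and 3 had a fold change above 0, while Tead4 (-0.79) and Tfap2c (-0.42) were below 0. Of 3 primitive endoderm markers tested 0 were called and 0 were above 0. The part of these lineage markers in the values of the 9 genes was not tested.

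The classical class I genes and B2m scattered more among knockdown libraries than among controls, and their groups overlapped. H2-K1 had 14.0, 53.1, 34.2 and 35.7 FPKM in Nr5a2 knockdown embryos and 26.2, 24.04, 29.8 and 23.8 FPKM in controls (log2 fold change 0.25, SE 0.33, limma adjusted p = 0.692). H2-D1 had 13.7, 44.7, 47.8 and 57.6 FPKM after knockdown and 17.6, 29.1, 18.8 and 34.4 FPKM in controls (log2 fold change 0.57, adjusted p = 0.437). In both genes knockdown library 1 was the lowest of all 8 and the other 3 knockdown libraries were above every control. B2m had 41.4, 80.9, 59.9 and 66.0 FPKM after knockdown and 45.4, 48.2, 52.4 and 42.6 FPKM in controls (0.35, adjusted p = 0.362), again with knockdown library 1 lowest. Without that library none of the 3 passed the test either: the smallest adjusted p over the fits that left out a library was 0.169 for H2-K1, 0.0890 for H2-D1 and 0.163 for B2m. The log2 fold changes moved with single libraries: without knockdown library 1 they were 0.62 for H2-K1, 1.0199 for H2-D1 and 0.53 for B2m, and without knockdown library 2 they were 0.00038 for H2-K1, 0.48 for H2-D1 and 0.22 for B2m. Without knockdown library 4, H2-D1 was at 0.36. H2-L, read beside H2-D1, had 4.45, 0.0837, 9.55 and 9.67 FPKM after knockdown and 4.20, 0.0347, 6.52 and 0.00367 FPKM in controls. The sum of H2-D1 and H2-L, chosen after the values were seen, had a log2 fold change of 0.61 (limma adjusted p = 0.342). Library 1 was also the deepest by the steps of low values, at 2.92 times the shallowest, where knockdown libraries 2 to 4 were at 1.43, 1.69 and 1.78 and the controls at 1 to 2.63. The part of depth in these values was not tested. Bst2 had 12.8, 34.7, 18.3 and 38.2 FPKM after knockdown and 28.1, 25.8, 21.3 and 10.4 FPKM in controls (0.23, adjusted p = 0.766). Tapbp had 3.12, 2.26, 2.48 and 3.37 FPKM after knockdown and 2.95, 2.23, 2.57 and 1.38 FPKM in controls (0.23, adjusted p = 0.625). Tap1 had 1.60, 0.185, 1.504 and 3.34 FPKM after knockdown, against 1.16, 0, 1.55 and 0 FPKM in controls. Tap2 stayed at or below 0.813 FPKM in all 8 libraries.

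**Figure D3:**
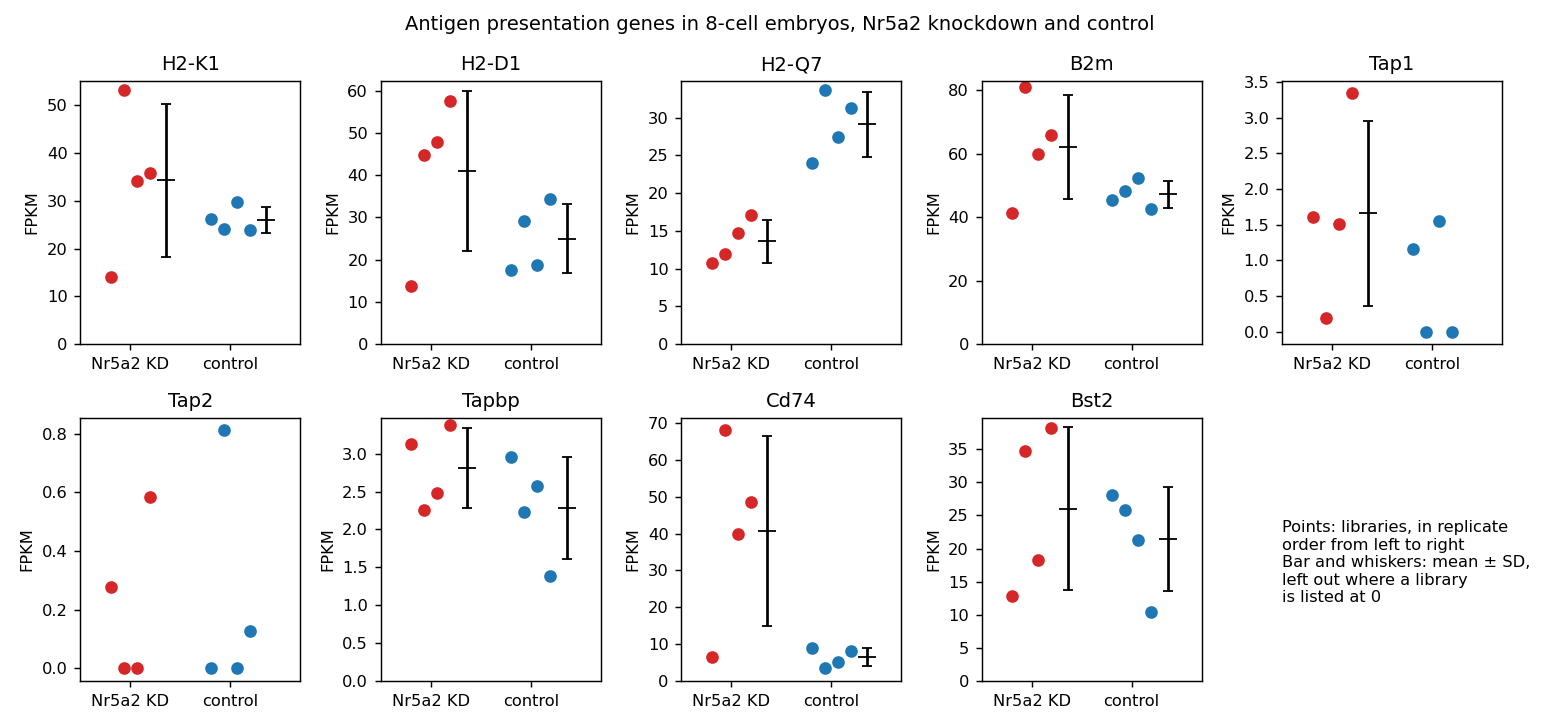
FPKM of each of the 9 genes in the 4 Nr5a2 knockdown (red, left) and 4 control (blue, right) libraries of 8-cell embryos, with mean ± SD where no library is listed at 0. H2-Q7 is lower in each knockdown library (10.7 to 17.1 FPKM) than in any control (23.98 to 33.7 FPKM), while in the other panels the groups overlap.

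Cd74 had the largest fold change of the 8 genes, and its groups overlapped in 1 knockdown library. It had 6.38, 68.2, 40.0 and 48.5 FPKM in Nr5a2 knockdown embryos and 8.83, 3.63, 5.11 and 8.24 FPKM in controls. The last 3 knockdown libraries lay well above all controls and knockdown library 1 lay within their range. The log2 fold change was 2.16 (SE 0.58, limma adjusted p = 0.0764), which did not pass. Without knockdown library 1 it was 2.87 and passed (adjusted p = 0.00608), and over the other alternatives the adjusted p was between 0.0658 and 0.230. Class II genes, whose products Cd74 escorts, were read beside it. H2-Ab1, a class II beta chain, had 2.33, 15.4, 17.2 and 21.8 FPKM after knockdown and 2.81, 2.50, 2.83 and 8.25 FPKM in controls (log2 fold change 1.40, adjusted p = 0.185). Without knockdown library 1 the fold change of H2-Ab1 was 2.02 and it passed (adjusted p = 0.0298). H2-DMb1, a subunit of the peptide exchanger of class II, had 1.93, 5.98, 2.33 and 6.91 FPKM after knockdown and 1.42, 0.511, 1.67 and 0.425 FPKM in controls. H2-Aa, a class II alpha chain, had 1.21, 9.14, 0.370 and 2.87 FPKM after knockdown and 1.05, 0, 0.993 and 0 FPKM in controls, and H2-Eb1, another beta chain, had 0.117, 6.91, 1.10 and 6.14 FPKM after knockdown and 2.35, 0, 0.173 and 0.272 FPKM in controls. H2-DMa, the partner of H2-DMb1, had 2.92, 20.4, 6.85 and 11.0 FPKM after knockdown and 7.45, 6.69, 1.64 and 3.70 FPKM in controls. The highest libraries of these 3 genes were knockdown libraries, and the groups overlapped in each. The H2-DMb1 groups did not overlap, as held in that direction for 8.38% of all genes tested. Its difference did not pass (log2 fold change 1.32, limma adjusted p = 0.0887).

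Of 13 listed genes of the class II pathway, Cd74 among them, 9 were tested, 0 were called and 8 had a fold change above 0, with a median of 1.18 beside 0.12 for all genes. The exception was H2-Oa, which dampens that exchanger and had 1.11, 2.25, 1.16 and 1.25 FPKM after knockdown and 3.24, 4.67, 3.43 and 2.86 FPKM in controls (log2 fold change -0.90, adjusted p = 0.0790). The median was between 0.55 and 1.57 over the other settings, and 8 of 9 stayed above 0 with medians set equal or quantile normalization. Leaving out knockdown library 2 gave a median of 0.67. Ciita, the switch of class II transcription, had 0.673, 1.28, 0.912 and 2.44 FPKM after knockdown and 1.001, 0.468, 0.865 and 1.81 FPKM in controls (0.18, adjusted p = 0.765), with overlapping groups. Rfxank, a subunit of the complex that binds class II promoters, had 9.23, 6.53, 6.94 and 8.46 FPKM after knockdown and 2.196, 4.92, 2.91 and 4.23 FPKM in controls (log2 fold change 0.98, SE 0.26, adjusted p = 0.0749). Every knockdown library lay above every control, as held for 8.38% of all genes tested, and the difference did not pass. Of 15 listed regulators of MHC genes, Rfxank among them, 8 were tested and 2 had a fold change above 0, with a median of -0.16. Nfyb (-0.86) and Nfyc (-0.41) were among those below 0.

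Because class II genes mark antigen-presenting cells, leukocyte markers were read beside them. Of 10 markers, 2 reached 1 FPKM in the knockdown and 2 in the control libraries, and the summed level was 6.23 to 18.1 FPKM after knockdown and 3.04 to 7.73 FPKM in controls. The defining markers Ptprc (the pan-leukocyte antigen), Csf1r and Tyrobp were listed at 0 in all 8 libraries, and Cd3e and Itgam in all knockdown libraries. Cd68, a lysosomal protein of macrophages that other cells also make, carried most of the sum, with 17.2, 4.67, 13.6 and 15.1 FPKM after knockdown and 3.72, 4.80, 1.65 and 5.57 FPKM in controls (log2 fold change 1.42, adjusted p = 0.0887). Its lowest knockdown library was number 2, the one highest in Cd74. Lyz2, another of the listed markers, had 1.14 FPKM in that same library and was listed at 0 in every other 8-cell library. The part of leukocyte RNA in the class II values was not tested. None of 10 fibroblast markers reached 1 FPKM.

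**Figure D4:**
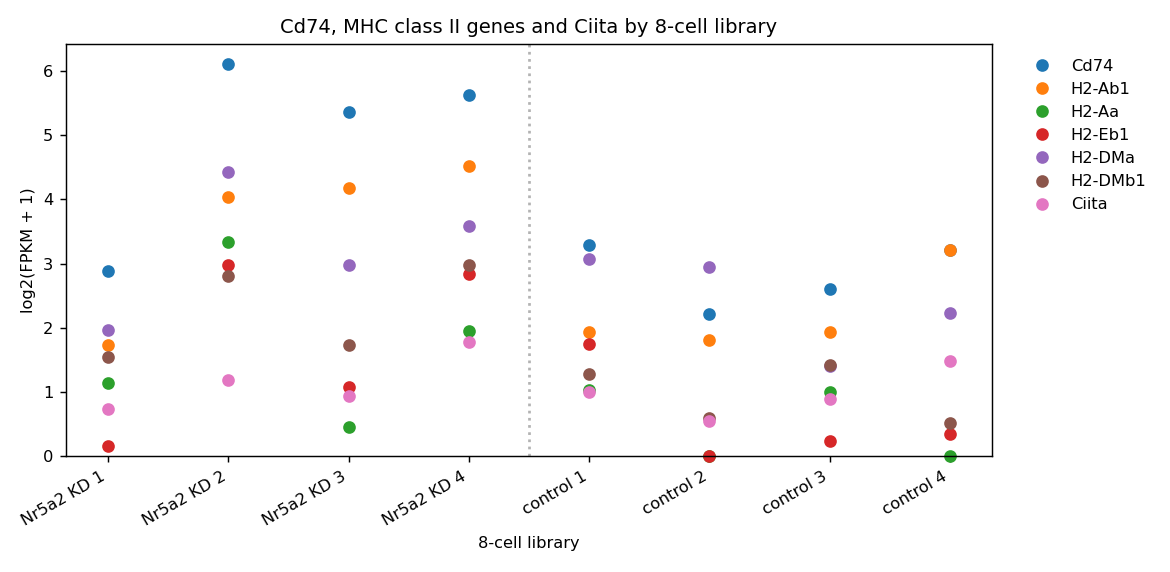
log2(FPKM + 1) of Cd74, 5 MHC class II genes and the class II activator Ciita in each Nr5a2 knockdown (left of the dotted line) and control (right) library of 8-cell embryos, 1 point per gene and library. Cd74 stands at 40.0 to 68.2 FPKM in knockdown libraries 2 to 4, and at 6.38 FPKM in knockdown library 1, inside the control range of 3.63 to 8.83 FPKM.

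Elsewhere in the pathway, 2 genes passed the test in the Nr5a2 knockdown, both lower. Psme1, a subunit of the proteasome activator, had 3.74, 2.28, 15.0 and 3.28 FPKM after knockdown and 20.0, 32.9, 17.9 and 17.7 FPKM in controls (log2 fold change -1.97, SE 0.44, limma adjusted p = 0.0441). Every knockdown library was below every control, although library 3 came close. The call held in 1 of the 8 fits that left out a library, the one without knockdown library 3 (-2.47, adjusted p = 0.00314), and the other 7 gave adjusted p between 0.0679 and 0.129. Psme1 also lost the call with pseudocount 0.1 (adjusted p = 0.0556), without a filter (0.159), without the variance trend (0.0544) and with the replicate block (0.0811). Tyk2, a kinase of the interferon receptors, had 3.61, 3.20, 3.64 and 2.91 FPKM after knockdown and 9.35, 10.4, 8.41 and 6.71 FPKM in controls (-1.15, SE 0.22, adjusted p = 0.0313). It kept the call without control library 4 or without knockdown library 3, and lost it without any other library (adjusted p between 0.0505 and 0.102), without a filter (0.0889) and with the replicate block (0.0696). By list, 4 of 6 immunoproteasome genes were tested with 1 lower, 5 of 7 interferon receptor and kinase genes with 1 lower, 9 of 27 class I heavy chains with 1 lower (H2-Q7), and 6 of 9 loading genes with 0 called. The share called lower among all genes tested was 0.698%. Of 15 regulators of MHC genes 8 were tested and of 23 interferon-induced genes 6, with 0 called in either. Among the interferon-induced genes, Ifitm3 had 0.680, 0.463, 0 and 0 FPKM after knockdown and 1.30, 5.46, 2.74 and 1.05 FPKM in controls (adjusted p = 0.0708).

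In blastocysts, knockdown of Gata4, a transcription factor of the primitive endoderm, moved none of the 9 genes past the test. Of the 6 that passed the filter (1 FPKM in at least 3 libraries), 0 were called by limma, 0 had groups that did not overlap (0.945% of all genes lay wholly above and 1.43% wholly below), and B2m alone had an unadjusted p under 0.05. Among all 8782 genes tested 0 (0%) were higher and 3 (0.0342%) lower, with 202 at an unadjusted p under 0.05. The median fold change of the 6 was -0.08, beside -0.02 for all genes.

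H2-K1 had 38.3, 65.5, 121 and 43.5 FPKM in Gata4 knockdown blastocysts and 43.5, 43.6 and 54.8 FPKM in controls (log2 fold change 0.35, limma adjusted p = 1.0), with 1 knockdown library far above the rest. H2-D1 had 73.2, 50.3, 70.3 and 87.0 FPKM after knockdown and 75.2, 51.9 and 129 FPKM in controls (-0.21, adjusted p = 1.0). H2-L, read beside H2-D1, had 10.3 FPKM in control library 1 and 14.5 in control library 3, and at most 0.00164 FPKM in every other blastocyst library. The sum of H2-D1 and H2-L, chosen after the values were seen, had a log2 fold change of -0.32 and was not called. B2m had 48.1, 93.6, 25.8 and 31.4 FPKM after knockdown and 14.3, 54.8 and 10.5 FPKM in controls (1.07, SE 0.51, unadjusted p = 0.0454, adjusted p = 1.0). The B2m values split with Rn45s: the 3 libraries without it had 48.1 and 93.6 FPKM after knockdown and 54.8 FPKM in the control, and the 4 with it had 25.8 and 31.4 FPKM after knockdown and 14.3 and 10.5 FPKM in controls. Within the libraries with Rn45s the B2m difference was 1.15 (adjusted p = 0.371), and within those without it was 0.29, with no test. Leaving out 1 library moved it between 0.62 without control library 3 (unadjusted p = 0.249) and 1.76 without control library 2 (unadjusted p = 0.00102, adjusted p = 0.196). Without knockdown library 2 it was 0.71. The H2-K1 difference was 0.023 without knockdown library 3, the one far above the rest, and 0.57 without library 1.

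Bst2 had 50.1, 47.3, 22.03 and 20.9 FPKM in Gata4 knockdown blastocysts and 34.5, 30.1 and 45.9 FPKM in controls (log2 fold change -0.16, limma adjusted p = 1.0). Its higher knockdown libraries were the 2 without Rn45s, and the direction differed by library type. Within the libraries with Rn45s it had 22.03 and 20.9 FPKM after knockdown and 34.5 and 45.9 FPKM in controls (-0.86, unadjusted p = 0.0278, adjusted p = 0.479). Within those without Rn45s it had 50.1 and 47.3 FPKM after knockdown and 30.1 FPKM in the control (0.68, with no test). Tap1 had 1.07, 1.58, 2.66 and 4.77 FPKM after knockdown and 1.63, 2.16 and 6.54 FPKM in controls (-0.29), and Tapbp had 0.762 to 1.55 FPKM after knockdown and 1.01 to 1.25 FPKM in controls. Both pairs of groups overlapped. H2-Q7 was listed at 0, 0.273, 0 and 0 FPKM after knockdown and at 1.60, 0 and 0 FPKM in controls, Cd74 stayed at or below 0.414 FPKM and Tap2 at or below 0.685 FPKM. The summed Qa-2 genes were at or below 1.97 FPKM in all 7 blastocyst libraries. Of the other pathway genes, H2-Oa (9.88 to 35.1 FPKM after knockdown, 14.7 to 29.9 in controls) and Psmb9 (3.86 to 13.1 FPKM after knockdown, 5.37 to 12.1 in controls) were present in all 7 libraries with overlapping groups. H2-Eb1 had 0.181, 0.638, 0.193 and 0 FPKM after knockdown and 1.32, 1.08 and 1.66 FPKM in controls (log2 fold change -0.92, unadjusted p = 0.00668, adjusted p = 1.0). Its groups did not overlap. H2-T24, a nonclassical heavy chain, and Ddx58, a sensor of viral RNA, were also lower in every knockdown library, at levels that did not pass the filter: H2-T24 had 0.182 to 0.347 FPKM after knockdown and 0.413 to 1.03 FPKM in controls.

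**Figure D5:**
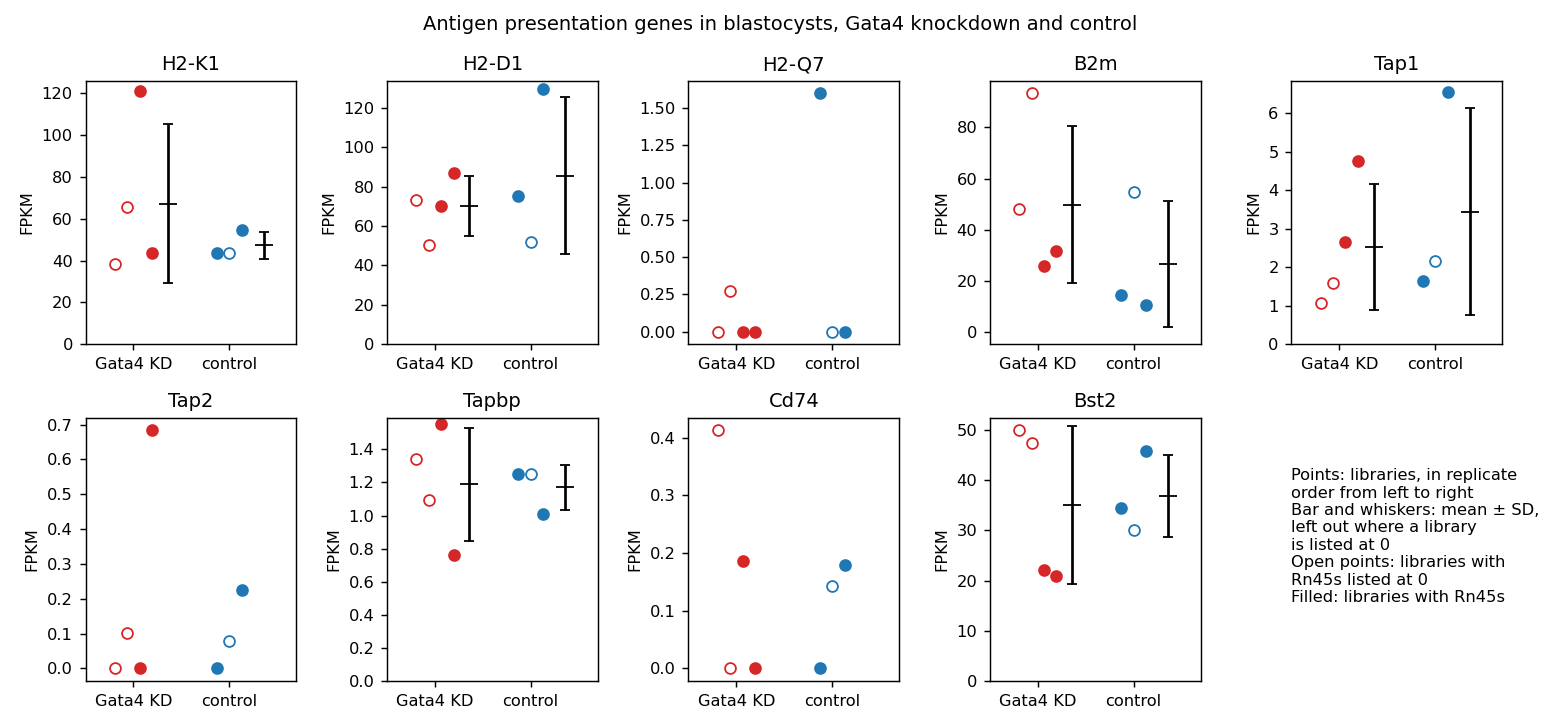
FPKM of each of the 9 genes in the 4 Gata4 knockdown (red, left) and 3 control (blue, right) blastocyst libraries, open where Rn45s is listed at 0 and filled where it is not, with mean ± SD where no library is listed at 0. The groups overlap for H2-K1, H2-D1, B2m, Tap1, Tapbp and Bst2, and the open points of B2m (48.1 to 93.6 FPKM) lie above the filled ones (10.5 to 31.4 FPKM).

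The KD control embryos can be set beside the stage series only as levels, since the tables were normalized separately and differ in Rn45s. H2-K1 had 23.8 to 29.8 FPKM in 8-cell controls, against 3.26 FPKM in the 8-cell stage value, and Bst2 had 10.4 to 28.1 FPKM in 8-cell controls, against 2.78. Cd74 had 3.63 to 8.83 FPKM in 8-cell controls and 0.479 in the stage value. H2-Q7 had 23.98 to 33.7 FPKM in 8-cell controls and 5.89 in the stage value. The sum of H2-Q6 to H2-Q9 had the opposite order, with 26.6 to 39.6 FPKM in 8-cell controls and 52.2 FPKM in the stage value. By the fold rule applied to the controls' median, 5 of the 9 genes (H2-K1, H2-D1, H2-Q7, Cd74 and Bst2) were higher in 8-cell controls, and 0 lower, against 2.86% higher and 6.87% lower among the 22515 genes in both tables.

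Blastocyst controls had 43.5 to 54.8 FPKM of H2-K1, against 5.92 FPKM in ICM, 51.9 to 129 FPKM of H2-D1, against 6.89, and 30.1 to 45.9 FPKM of Bst2, against 1.89. These 3 genes were past the rule, and 0 were lower, against 3.82% higher and 13% lower among all genes. Whole blastocysts also hold the trophectoderm, which immunosurgery is meant to remove from the ICM samples. The 10 listed trophectoderm markers still added up to 193.74 FPKM in ICM, against 2770.5 to 3782.5 FPKM in blastocyst controls. Injection, culture, tissue and table cannot be told apart here.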

How the data were processed

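The submitters' processing notes name CASAVA 1.8, STAR 2.4.0 and build mm9 for each of the 32 samples, and Cufflinks 2.2.1 for 20 of them. The authors deposited FPKM values in 3 tables: 24013 genes by stage (1 column per stage, how replicates were joined is not stated) and 22536 genes by library for each knockdown. No column of values was left unused.

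Groups followed the labels. Each knockdown was compared with its controls by limma 3.58.1 (R 4.3.3) with a variance trend on log2(FPKM + 1), for genes at 1 FPKM or more in at least 4 of the 8-cell or 3 of the blastocyst libraries, two-sided, with Benjamini-Hochberg adjustment over all genes tested and a threshold of 0.05. A fold change on this scale understates changes of low genes. Stage steps have no replicates and no test.

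Relative depth came from the steps of FPKM values below 0.4. In the 8-cell libraries all 28 pairs fitted within 3.98%; in blastocysts this held within the libraries with Rn45s (6 pairs, 2.65%) and without (3 pairs, 0.143%). Totals of FPKM were 285290 to 308690 in 8-cell and 237290 to 366360 in blastocyst knockdown libraries. Replicates correlated at 0.923 to 0.976.

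The members and gene lists were chosen with earlier results of these data known. Named genes were the members, the targeted genes, list genes that passed the test or the fold rule with up to 4 of each list by level, the 3 most similar stage profiles per gene, and markers or Rn45s where they move with a result; class II genes, H2-Q10, H2-L, H2-T24, Ddx58, Rfxank and Nlrc5 beyond that were named after their values were seen, and some genes within the rule are not reported here. Copies were searched with blastn 2.17.0 among GENCODE M21 coding sequences (95% identity over 50% of the length). Same-numbered libraries did not deviate together, so numbers were not taken as pairs. Alternatives were other pseudocounts, filters, scalings, no variance trend, a replicate block, library type, and leaving out each library; sums of copies were added after seeing the data.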

Additional observations from a re-analysis of the deposited data

Results flagged for a closer look

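Among 27 groups of 4 knockdown-table libraries, 3 held a library that stood far from the other 3 by Dixon's criterion. Its rate of about 1 in 20 by chance is for normally spread values. That rate does not apply to these 3 groups, in each of which several libraries were listed at 0. All 3 concern values under 1 FPKM. Tap2 had 0.813 FPKM in control library 2 of the 8-cell table, against at most 0.127 FPKM in the other controls. Tap2 had 0.685 FPKM in Gata4 knockdown library 4, against at most 0.102 FPKM in the other Gata4 knockdown libraries. H2-Q7 had 0.273 FPKM in Gata4 knockdown library 2 and was listed at 0 in the other 3, so any value above 0 would have been flagged.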

How the results depend on the processing

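In the Nr5a2 knockdown, 118 of 128 values of single genes under the alternatives kept their direction and side of the threshold, and 1 reversed: Bst2 was -0.067 without control library 4, with -0.067 to 0.51 over all fits that left out a library. The count of genes called, 185, was 108 with pseudocount 0.1, 11 without a filter, 55 with the replicate block and 21 to 285 when 1 library was left out. The 1 member called (H2-Q7) became 0 without a filter, where more genes were tested (adjusted p = 0.0937), and 0 with the block, and 0 to 1 when a library was left out. With the replicate number as a block the adjusted p of H2-Q7 was 0.0617. The numbers are not shown to pair the libraries (correlations of deviations 0.0364, 0.0821, -0.108 and -0.0016 for the 4 numbers, and -0.0956, 0.277 and 0.0179 in blastocysts), and not every library correlated best with its own number.

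In the Gata4 knockdown, with 3 genes called as deposited, the count was 1 with pseudocount 0.1, 0 without a filter, with at least 5 FPKM, with median scaling, with quantile normalization, with library type as covariate and within the libraries with Rn45s, 18 with the replicate block and 1 to 27 when a library was left out. No member was called in any of these fits. Signs reversed for small differences: H2-D1 was 0.22 within the libraries without Rn45s (-0.51 to 0.14 leaving out a library); Tap1 was 0.045 within those with Rn45s (-0.58 to 0.18). Tapbp was -0.015 with pseudocount 0.1, -0.012 with library type, -0.0045 with and -0.022 without Rn45s (-0.078 to 0.10). Bst2 was 0.046 with the block and 0.68 without Rn45s (-0.36 to 0.046). Of the stage steps, 12 became 4 with pseudocount 5 and 6 with at least 10 FPKM in the higher stage. The cause of these changes was not tested.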
